A study of Rattus norvegicus with 180 samples.

Results

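The Harderian gland of perfused rats was compared with the mean of the 3 salivary glands (sublingual, mandibular and parotid) of the same animals, over all miRNAs of the array. The comparison used 12 of the 180 arrays of the atlas, 3 of the Harderian gland and 9 of the salivary glands, chosen by the organ and the animal number in the sample titles. All 12 came from male Sprague-Dawley rats, 10 weeks old, with no treatment named other than ether anesthesia and saline perfusion, numbered 4, 5 and 6. Each gland was a whole dissected organ with 1 array per animal, so each group of 1 gland held 3 biological replicates. The arrays measured 717 miRNAs, and 182 of them were tested here, namely those detected in every animal for 1 or more of the 4 glands. Values are normalized signal intensities, that is, probe brightness above background scaled between arrays, and they allow 1 miRNA to be compared between glands but not 2 miRNAs with each other. A miRNA was detected on an array where more than 50% of its spots stood well above background by the scanner software's own test.

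The Harderian gland lies behind the eyeball of rodents and secretes lipid and porphyrin onto the eye surface. Salivary glands are also exocrine but secrete a watery or mucous fluid that carries proteins, with parotid acini mainly serous and sublingual acini mainly mucous. A miRNA is a short RNA that lowers the output of target messenger RNAs, which it recognises mainly through its seed, bases 2 to 8 from the 5′ end, so that miRNAs with the same seed can share targets. In a whole gland, fewer cells of a type and less miRNA per cell cannot be told apart.

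The miRNAs with the largest differences are shown first by sequence, because their seeds define the groups used later. Mature sequences are those of RefSeq on the GRCr8 build, printed 5′ to 3′ with the seed in capitals. Most of the array's names give no arm in the current 5p and 3p form, so the arm was assigned by name. Of the 12 called miRNAs most above the salivary glands whose arrays did not overlap with them, 11 matched an entry. Unmatched was miR-598-3p. The star form of miR-652, from the opposite arm of its hairpin, and that of miR-22 are shown beside the main forms because the arms are compared below.
miR-203: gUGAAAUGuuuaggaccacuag
miR-652: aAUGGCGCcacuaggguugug
miR-652*: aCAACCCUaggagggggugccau
miR-107: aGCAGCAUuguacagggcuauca
miR-103: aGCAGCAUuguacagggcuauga
miR-324-5p: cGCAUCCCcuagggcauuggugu
miR-22: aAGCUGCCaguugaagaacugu
miR-22*: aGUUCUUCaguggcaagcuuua
miR-205: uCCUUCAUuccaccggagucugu
miR-183: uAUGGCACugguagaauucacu
miR-93: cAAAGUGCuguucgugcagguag
miR-128: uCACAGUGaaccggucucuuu
MiR-652 lies at chrX:111140129-111140149 on the plus strand, inside the span of the protein-coding gene Tmem164, and its star form at chrX:111140088-111140110. MiR-203 lies at chr6:137020756-137020777 on the plus strand, outside any other annotated gene span. MiR-107 (chr1:241750431-241750453, minus strand) lies within Pank1 and miR-103 (chr3:138963278-138963300, plus strand) within Pank2, which both encode pantothenate kinases. The array also names star forms miR-103-1* and miR-103-2*, so miR-103 may have a further hairpin, for which no location was matched. The gene spans carry no exon boundaries in the table used, so exon and intron were not told apart. MiR-107 and miR-103 share the seed GCAGCAU and their sequences differ only by C22G, written as the base of miR-107, the position from the 5′ end and the base of miR-103.

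Among the 12 called miRNAs most below the salivary glands whose arrays did not overlap with them, 9 matched a RefSeq entry. The 12 are taken up because 2 of them, miR-136 and miR-154, belong to an imprinted miRNA cluster that is described as a group. Several others belong to families in which some members were not called. Unmatched were miR-136, miR-200a and miR-320. MiR-379, from the same imprinted cluster as miR-154, is added.
miR-154: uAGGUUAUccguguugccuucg
miR-379: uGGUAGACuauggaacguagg
miR-345-5p: uGCUGACCccuaguccagugc
miR-193: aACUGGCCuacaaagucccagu
miR-152: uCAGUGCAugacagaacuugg
miR-30a: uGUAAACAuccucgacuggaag
miR-375: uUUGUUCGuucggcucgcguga
miR-181c: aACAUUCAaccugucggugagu
miR-532-5p: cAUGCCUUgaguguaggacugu
miR-29c: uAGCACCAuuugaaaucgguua
MiR-154 (chr6:134574366-134574387, plus strand) and miR-379 (chr6:134543460-134543480, plus strand) lie within annotated long noncoding RNA spans of the Dlk1-Dio3 region. MiR-345-5p (chr6:133518418-133518438, plus strand) lies on the same chromosome. MiR-152 lies within Copz2 and miR-532-5p within Clcn5, both protein-coding genes.

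Some arrays stood apart. The 75th percentile of signal before scaling ran from 336 (parotid gland, animal 6) to 6121 (sublingual gland, animal 4), and between 111 and 230 miRNAs were detected per salivary array against 134 to 157 per Harderian array. The mandibular array of animal 6 correlated with the 3 sublingual arrays at r = 0.946 to 0.969 over the 182 miRNAs but with the other mandibular arrays at 0.933 and 0.947, whereas those 2 correlated with each other at 0.995. Skeletal muscle miRNAs were present on some arrays of both kinds: their summed signal over the 6 listed (each at the floor of 10.8 or above) was 3450, 1311 and 129 in the Harderian gland of animals 4, 5 and 6, 12344, 6224 and 106 in the parotid gland, and 77.9 to 157 in the sublingual and mandibular glands. Each Harderian array was hybridised on another slide than the salivary arrays of the same animal, so slide and gland cannot be told apart within an animal, and each animal was scanned on a day of its own.

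Of the 182 miRNAs tested, 123 differed between the Harderian gland and the mean of the salivary glands at a Benjamini-Hochberg adjusted p under 0.05 in limma, a share of 67.6%. In the Harderian gland 46 were higher (25.3%) and 77 were lower (42.3%). The median difference over all tested was -0.24 on the log2 scale, and 23 of the called miRNAs were higher and 44 lower by at least 1 log2 unit. All 3 Harderian arrays lay above all 9 salivary arrays for 30 miRNAs (16.5%) and below them for 22 (12.1%). The split between directions depended on scaling: with the 75th percentile taken over all miRNAs of an array, the median shifted to 0.24, and 68 were called higher and 46 lower. With normexp, a fitted background model that flattened dim signals on the parotid array of animal 6 to nearly 1 value, 12 miRNAs were called, and 43 without that array. Among 95 named miRNAs, 10 changed sign with normexp on all arrays and 0 did so without that array. The count of called miRNAs was 72 without animal 5, and 94 (45 higher and 49 lower) with slide as a fixed block. With that block 20 of 95 named miRNAs lost their call and 5 changed sign. No slide held both kinds of gland, so the slide effects of that fit rest on other organs. Among the 12 largest higher miRNAs without overlapping arrays, miR-203, miR-652, miR-107 and miR-22 stayed called under every alternative run. Among the 12 largest lower ones without overlapping arrays, miR-30a alone did so. Of the tested miRNAs, 38 were detected on no Harderian array and 1, miR-130b, on no salivary array, counts that the filter favours because a miRNA could pass through any of 3 salivary glands, and differences of the 38 are taken against values near the floor.

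**Figure D1:**
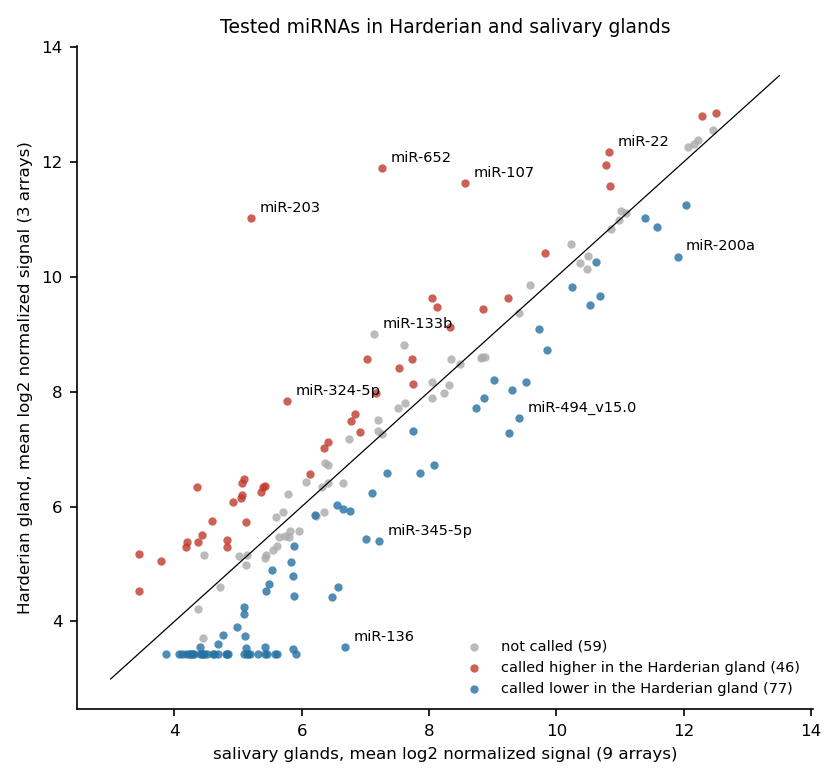
Mean log2 normalized signal of the 182 tested miRNAs in the salivary glands (x axis, 9 arrays) and in the Harderian gland (y axis, 3 arrays), with the line of equality; 46 miRNAs called higher and 77 called lower are coloured. MiR-203, miR-652 and miR-107 stand farthest above the line, at log2 differences of 5.82, 4.62 and 3.06.

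The largest difference was that of miR-203, a miRNA of stratified squamous epithelium such as skin and esophagus. Its normalized signal was 1894, 2151 and 2215 in the Harderian gland of animals 4, 5 and 6, against a lowest value of 25.2, a median of 32.5 and a highest value of 70.2 on the 9 salivary arrays, of which 5 detected it. No salivary array came near the Harderian level. The difference was 5.82 ± 0.19 on the log2 scale (SE, n = 3 animals, limma adjusted p = 1.93e-09), a 56.4-fold higher signal, and it was 5.56, 5.71 and 6.18 within animals 4, 5 and 6. The fold is approximate, since it rests in part on salivary arrays that did not detect miR-203. Among all 55 organs of the perfused animals the Harderian gland ranked 3 for miR-203, with a mean signal of 2087 ± 169 (SD, n = 3) after the esophagus at 4888 ± 2961 and the anterior stomach at 2139 ± 242, while skin followed at 1952 ± 727. Jejunum at 1836 ± 318 and duodenum at 1841 ± 472, which have no squamous epithelium, came next. The Harderian gland did not differ from anterior stomach, skin, jejunum or duodenum beyond their spread. MiR-205 and miR-31, which are also abundant in squamous epithelium, make up the rest of that list, and all 4 of its probe sets passed the test as higher, where 25.3% of all tested did, with a median of 1.35 beside -0.24. The probe set miR-205_v15.0, whose name carries an earlier miRBase release, gave 795, 782 and 805 in the Harderian gland against 175, 252 and 425 as the lowest, median and highest salivary values. The groups did not overlap, and the signal was 3.01-fold higher (log2 difference 1.59 ± 0.10, limma adjusted p = 3.51e-07), while the untagged probe set miR-205 gave a smaller difference of 0.88. MiR-31 overlapped with one gland: its Harderian values of 35.3, 41.5 and 41.2 lay within the sublingual range of 38.7 to 47.3 or close below it, and its difference of 1.10 (limma adjusted p = 0.000528) came from the mandibular and parotid glands and fell to -0.01 with a floor 4 times as high.

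MiR-652, the marker of the Harderian gland, was selected on these same samples, so its level is a check of the label and not independent evidence. Normalized signal was 3162, 3870 and 4419 in the Harderian gland and 97.4, 154 and 233 as the lowest, median and highest salivary values, with the miRNA detected on all 12 arrays. The groups were far apart in each animal, by 4.77, 4.60 and 4.49 log2 units in animals 4, 5 and 6. The mean difference was 4.62 ± 0.23 (SE, limma adjusted p = 4.66e-08), a 24.6-fold higher signal. An exact permutation test within animals gave p = 0.015625, two-sided, the smallest that its 64 arrangements allow. Because the marker was selected on these samples, this p-value and that of limma are no independent evidence. Across the 55 organs the Harderian gland ranked first at 3817 ± 630 (SD, n = 3), and the next were bone marrow at 859 ± 140, testicle at 821 ± 153, thymus at 656 ± 55.9 and adrenal gland at 648 ± 43.0. Bone marrow and testicle did not differ beyond their spread, and neither did thymus and adrenal gland. For high miR-652 the paper names bone marrow, lung, rectum and adrenal gland beside the Harderian gland, without testis or thymus. The order given here rests on the scaling of this report.

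The star form of miR-652 did not follow the main form. It gave 71.3, 70.3 and 83.4 in the Harderian gland and 23.2, 67.9 and 99.7 as the lowest, median and highest salivary values, so the Harderian arrays lay inside the salivary range. Its difference of 0.43 had a 95% interval of -0.09 to 0.95 (limma adjusted p = 0.127), and the Harderian gland ranked 17 of 55 organs for it. Across the means of the 55 organs, the miRNAs whose log2 signal was most like that of miR-652 were miR-872 (Pearson r = 0.58), miR-505 (0.53), miR-301a (0.52), miR-425 (0.52) and miR-107 (0.51), a description over organs that share animals, slides and scaling. They were picked over organs that include the Harderian gland, where miR-652 is highest, so their differences of 0.59 (miR-872), 1.15 (miR-301a) and 1.07 (miR-425) from the salivary glands are a description, and each turned negative with normexp. None of these did so when normexp was run without the parotid array of animal 6. MiR-505 was detected on none of the 12 arrays.

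**Figure D2:**
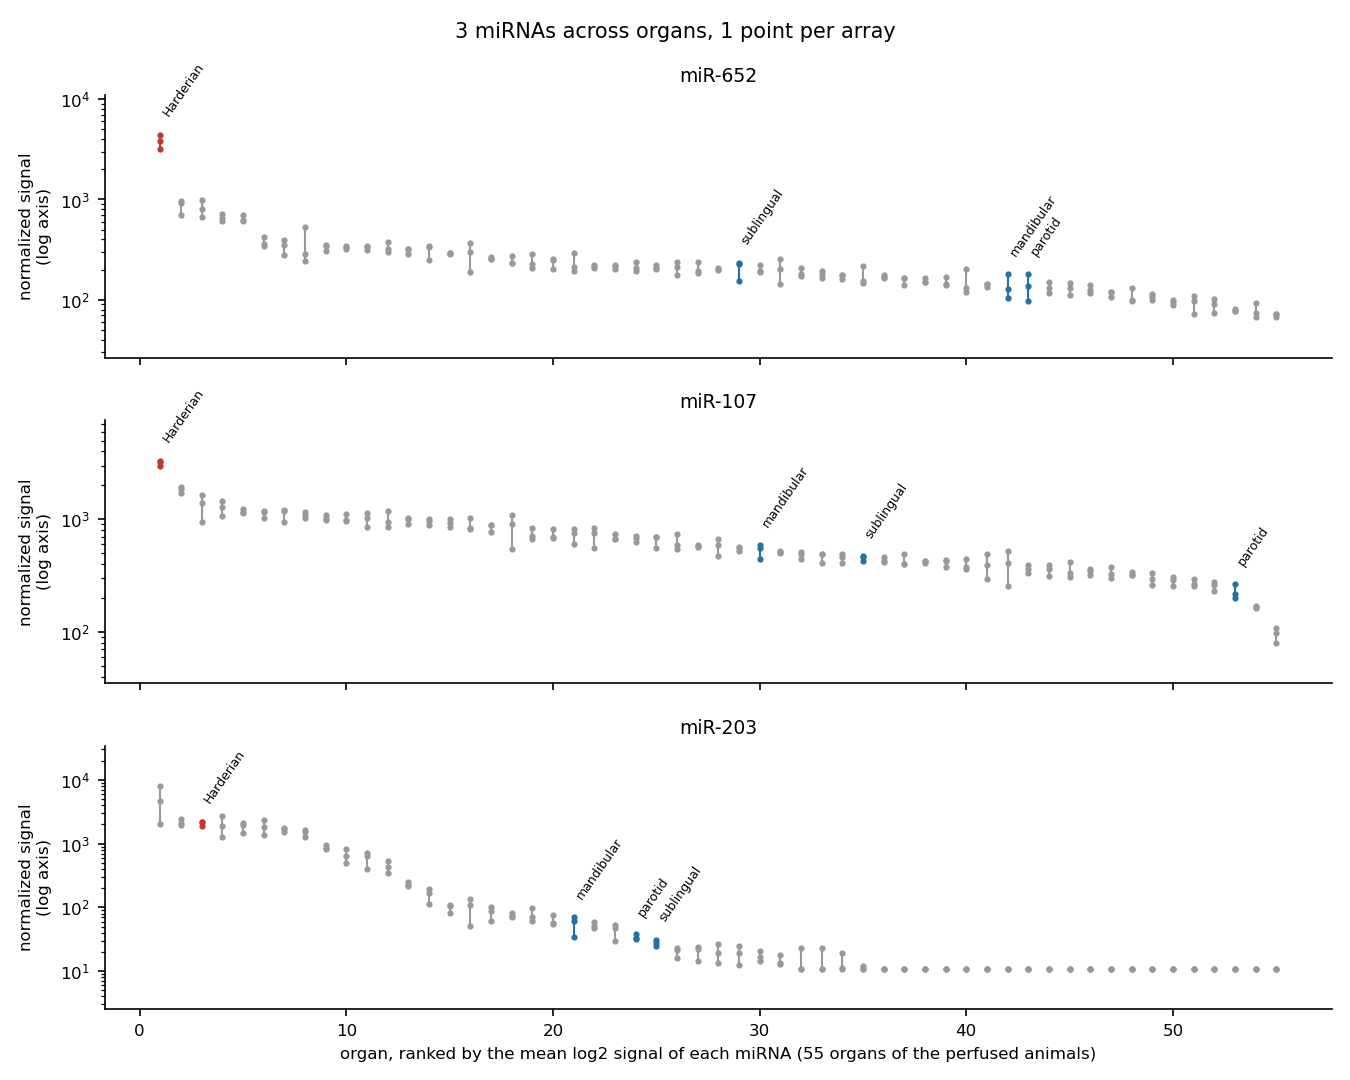
Normalized signal (log axis) of miR-652, miR-107 and miR-203 in the 55 organs of the perfused animals, ranked by mean log2 signal, 1 point per array and a line over the range, with the Harderian gland in red and the salivary glands in blue. The Harderian gland ranks 1 for miR-652 and miR-107 and 3 for miR-203, where the highest salivary gland ranks 29, 30 and 21.

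MiR-107 and miR-103 are paralogues within the spans of pantothenate kinase genes and have been linked to lipid and glucose metabolism. MiR-107 gave 3324, 3232 and 2947 in the Harderian gland against 200, 445 and 587 as the lowest, median and highest salivary values. The Harderian arrays lay above every salivary array by more than 5-fold, and the mean difference was 3.06 ± 0.13 (SE, limma adjusted p = 1.1e-08), an 8.36-fold higher signal. The Harderian gland ranked first of 55 organs for miR-107 too, at 3168 ± 196 (SD, n = 3), ahead of testicle at 1841 ± 118. MiR-103 gave 680.4, 732 and 715 in the Harderian gland and 175, 303 and 398 in the salivary glands. Its values did not overlap either, but the difference was smaller, 1.34 ± 0.13 (SE, limma adjusted p = 8.45e-06), and the Harderian gland ranked 14 of 55 organs for it. MiR-107 exceeded miR-103 in its difference by 1.87, 1.69 and 1.62 log2 units in animals 4, 5 and 6, with a mean of 1.73.

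The 2 sequences printed above for miR-107 and miR-103 differ at 1 base, and so do 11 further pairs among the miRNAs with RefSeq sequences. The differences of the 12 pairs were set side by side within animals. No p-values are given, because the pairs were taken up after their values had been seen and come largely from miRNAs named for large differences. Probes for miRNAs that differ by 1 base can bind each other's target, and the part of such cross-hybridisation in these values was not tested. The following sequences, with the printed miR-29c, complete the 4 pairs with the widest gaps.
miR-29a: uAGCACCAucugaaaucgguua
miR-101a: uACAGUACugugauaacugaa
miR-101b: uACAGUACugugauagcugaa
miR-27a: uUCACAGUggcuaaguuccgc
miR-27b: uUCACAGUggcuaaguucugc
Besides miR-107 and miR-103, these pairs are miR-101a and miR-101b (A16G), miR-29c and miR-29a (U10C), and miR-27a and miR-27b (C19U). In each of the 4 pairs the gap had the same sign in the 3 animals, as it also had in several of the remaining pairs. MiR-101a gave 223, 188 and 223 in the Harderian gland against 294, 385 and 737 as the lowest, median and highest salivary values, a difference of -1.01 (limma adjusted p = 0.00319). MiR-101b went the other way, with 178, 160 and 201 against 72.1, 108 and 161, a difference of 0.71 (limma adjusted p = 0.0126) in which 1 Harderian array lay just below the highest salivary array. The first minus the second was -1.72 on average, and -1.66, -1.71 and -1.79 within animals. With a background fitted by normexp the difference of miR-101b was -0.01. Its sign did not change when normexp was run without the parotid array of animal 6.

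MiR-29c was lower in the Harderian gland, and the other members of its family were not called. It gave 851, 714 and 869 against 1387, 1645 and 1964 as the lowest, median and highest salivary values, without overlap, a difference of -1.03 ± 0.13 (SE, limma adjusted p = 9.6e-05). MiR-29a, with the same seed AGCACCA, gave 2232, 2319 and 2118 within a salivary range of 1525 to 2810.4, a difference of 0.03 (95% interval -0.24 to 0.29). MiR-29b differed by 0.14 (limma adjusted p = 0.272) with a 95% interval of -0.10 to 0.37. MiR-27b likewise was lower, at 737, 700.3 and 750.03 against a lowest salivary value of 1144 and a difference of -1.02 (limma adjusted p = 0.000155), while miR-27a lay within the salivary range with a difference of -0.05 (95% interval -0.29 to 0.19). With the percentile over all miRNAs the differences of miR-29c, miR-27b and miR-101a were -0.54, -0.52 and -0.51 and were not called, whereas the gap between the members of a pair does not depend on the scaling. Of the 8 remaining pairs the widest gap was that of miR-23a over miR-23b, at 0.69.

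**Figure D3:**
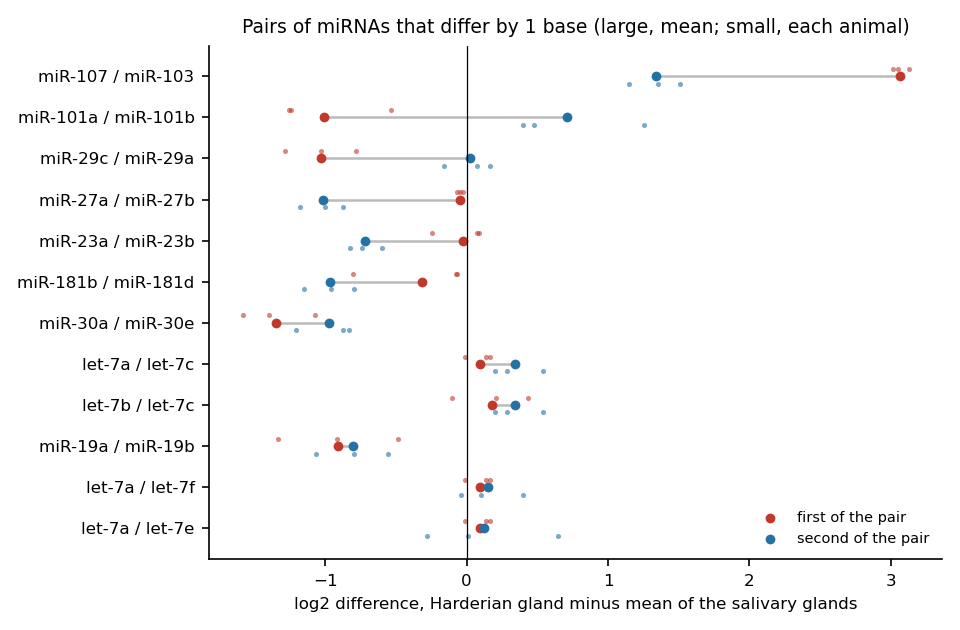
Log2 difference, Harderian gland minus the mean of the salivary glands, of both members of the 12 miRNA pairs that differ by 1 base, with large points for the mean and small points for each of the 3 animals. The gap is widest for miR-107 over miR-103 (1.73) and for miR-101a below miR-101b (-1.72), and close to 0 for let-7a and let-7e (-0.03).

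Other miRNAs above every salivary array had smaller differences. MiR-324-5p gave 203, 228 and 255 in the Harderian gland against 42.6, 55.3 and 72.7 as the lowest, median and highest salivary values, a 4.19-fold higher signal (log2 difference 2.07 ± 0.12, limma adjusted p = 1.56e-07). The Harderian gland ranked second of 55 organs for it at 229 ± 26.1 (SD, n = 3), and the thalamus at 237 ± 12.5 and the hippocampus at 213 ± 47.3 lay within its spread. The opposite arm, miR-324-3p, showed 162, 191 and 192 within a salivary range of 103 to 239.8 and a difference of 0.31 (limma adjusted p = 0.0632). The 2 arms of the miR-22 hairpin, by contrast, were both higher. MiR-22 gave 4184, 4942 and 4685 against 1579, 1790.0 and 2015, a narrow salivary range that the Harderian arrays exceeded more than 2-fold (log2 difference 1.34 ± 0.12, limma adjusted p = 5.11e-06). Its star form gave 90.0, 64.5 and 92.3 against 10.8, 23.7 and 31.3 and a difference of 1.99 ± 0.24 (limma adjusted p = 4.99e-05), with the lowest salivary value at the floor.

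MiR-93 is made from the miR-106b to miR-25 cluster within Mcm7, and miR-128 is best known from neurons. MiR-93 gave 80.9, 97.6 and 90.9 in the Harderian gland against 22.1, 29.5 and 54.7 as the lowest, median and highest salivary values (log2 difference 1.39, limma adjusted p = 0.000159). MiR-106b, with the same seed AAAGUGC, gave 137, 148 and 148 within a salivary range of 66.2 to 168 and a difference of 0.43 (limma adjusted p = 0.0632). MiR-128 gave 103, 79.4 and 74.9 against 26.8, 30.2 and 61.9 (log2 difference 1.35, limma adjusted p = 0.0001), and it was the only 1 of 7 neuron miRNAs that was detected on any Harderian array. A pair of dim miRNAs completes the set. MiR-598-3p gave 38.8, 30.3 and 40.1 in the Harderian gland and the floor of 10.8 on all 9 salivary arrays, 1 of which detected it, so the size of its difference is set by the floor, and it was 0 with a floor 4 times as high. MiR-130b gave 19.8, 23.6 and 26.6 against the same floor and was not well above background on any salivary array, so its signal was at least 1.2-fold higher, with entry into the test through the Harderian gland alone.

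The Harderian gland lies beside the eye, and 6 miRNAs of retina and lens were listed to check for eye tissue. MiR-183, miR-182 and miR-96 come from 1 cluster on chromosome 4 that is known from sensory cells, and all 4 listed miRNAs that were tested were higher, where 25.3% of all tested were, with a median of 0.78 beside -0.24. MiR-183 gave 320.1, 424 and 407 against 75.2, 148 and 188 as the lowest, median and highest salivary values, a 2.94-fold higher signal without overlap (log2 difference 1.56 ± 0.17, limma adjusted p = 2.39e-05). The Harderian gland ranked second for it with 384 ± 55.9 (SD, n = 3), about 10 times below the eyeball at 3794 ± 499 and above the epididymis at 207 ± 12.7. MiR-182 gave 62.9, 69.6 and 69.9 against 25.2, 30.6 and 39.8 (log2 difference 1.16, limma adjusted p = 8.45e-06) and was also second to the eyeball, whose mean was 381 ± 42.2. MiR-96 overlapped with the salivary glands, at 699, 779 and 916 against 404, 688 and 734, and its difference was 0.40 (limma adjusted p = 0.0088). The lens and cornea miRNA miR-184, at 11187 in the eyeball, was detected on 1 of 3 Harderian arrays at 18.5, and miR-211 on none. MiR-204, at 13959 in the eyeball, gave 214, 138 and 133 against 75.1, 128 and 167 and lost its call (0.39, limma adjusted p = 0.0484) without the Harderian array of animal 4, where it was 0.17. With normexp miR-182 turned to -0.15 and miR-204 to -0.21, and miR-183 lost its call at 0.64. Neither miR-182 nor miR-204 changed sign when normexp was run without the parotid array of animal 6. The part of eye tissue in the values of the miR-183 cluster was not tested.

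**Figure D4:**
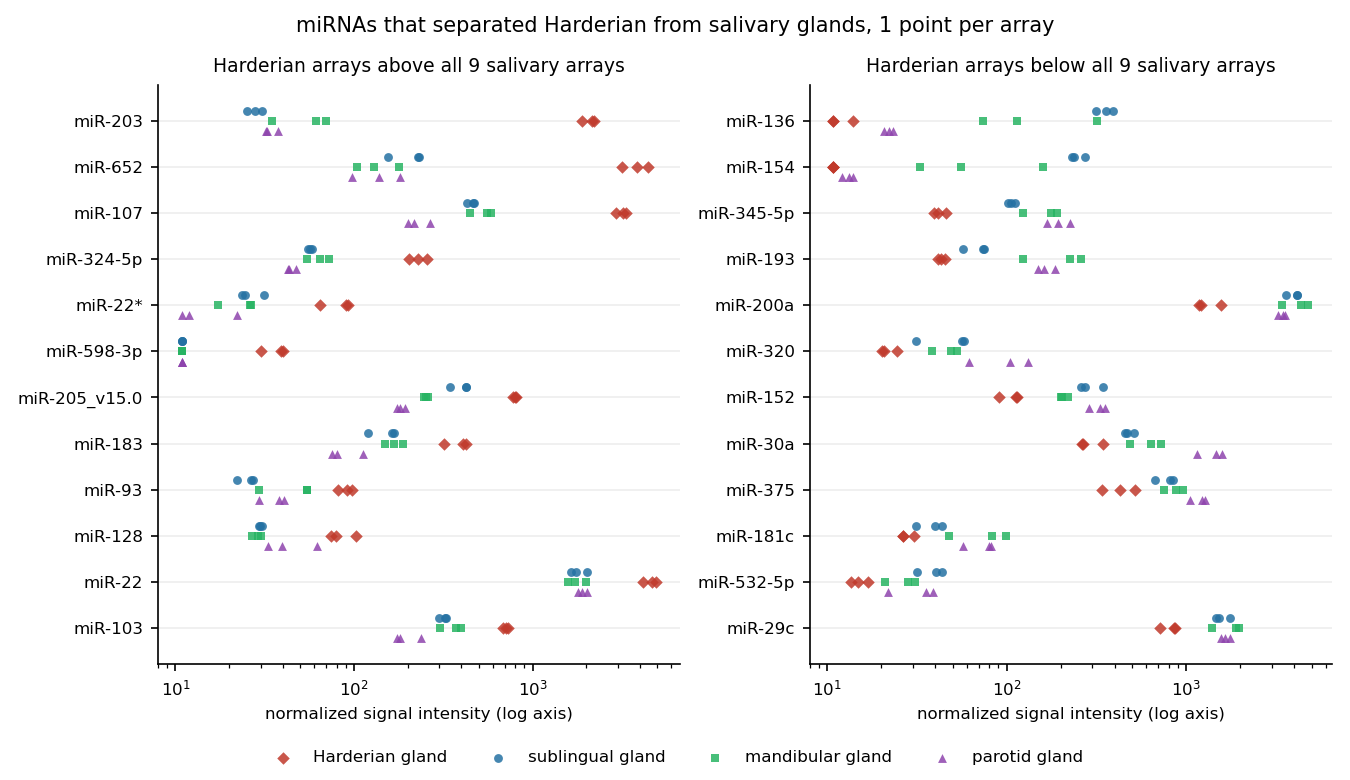
Normalized signal (log axis) on each of the 12 arrays for the 12 miRNAs with the largest positive (left) and the 12 with the largest negative (right) differences whose 3 Harderian arrays lie beyond all 9 salivary arrays, 1 point per array. Harderian points (red diamonds) are separated widest for miR-203, at 1894 to 2215 against 25.2 to 70.2, and on the right the salivary points spread most for miR-136 and miR-154, between the sublingual glands at the high end and the parotid glands at the low end.

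On the lower side stood many miRNAs of the imprinted Dlk1-Dio3 region. They are expressed from the maternal chromosome and are abundant in brain, pituitary and embryo. Of 45 probe sets of 36 such miRNAs, 26 were tested, and 24 of these were called lower, where 42.3% of all tested were, and 0 higher. The filter bears on these counts, to an extent that was not tested. Leaving aside the pair of probe sets of miR-494, which were high in the parotid gland only, 23 of the 24 tested were detected on all 3 sublingual arrays and 1 on all 3 Harderian arrays. Most thus entered the test through the sublingual gland and are set against Harderian values at or near the floor. MiR-136 gave 13.9, 10.8 and 10.8 in the Harderian gland against 20.7, 114 and 393 as the lowest, median and highest salivary values. It was not well above background on any Harderian array, so its signal was at least 6.54-fold lower. MiR-154 stood at the floor of 10.8 on all 3 Harderian arrays against 12.0, 55.4 and 274, at least 3.94-fold lower. The star forms of both hairpins were also below background on every Harderian array, miR-136* at least 2.63-fold and miR-154* at least 2.4-fold lower. The call of miR-154* was lost without the sublingual gland. No p-values are given for these main and star forms, which passed the filter through the salivary glands alone.

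The salivary glands differed among themselves for this cluster, with the sublingual gland highest. MiR-136 was 357, 313 and 393 in the sublingual gland of animals 4, 5 and 6, 74.1, 114 and 319 in the mandibular gland, and 22.1, 20.7 and 23.2 in the parotid gland. Of the 24 tested other than miR-494, 22 were called lower against the sublingual gland, where 31.9% of all tested were, 13 against the mandibular gland (26.9%) and 1, miR-370, against the parotid gland (25.3%), in comparisons that share the Harderian arrays and follow the same filter. The cluster's summed signal over 43 probe sets without miR-494, each at the floor of 10.8 or above, was 508 to 539 in the Harderian gland, 3305 to 3502 in the sublingual gland, 796, 1074 and 2341 in the mandibular gland of animals 4, 5 and 6, and 580 to 741 in the parotid gland. The highest mandibular value belonged to the array of animal 6 that resembled the sublingual arrays. Of the 24 tested, 11 were detected on all 3 mandibular arrays and 2 on all 3 parotid arrays, and 4 were detected on any Harderian array.

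**Figure D5:**
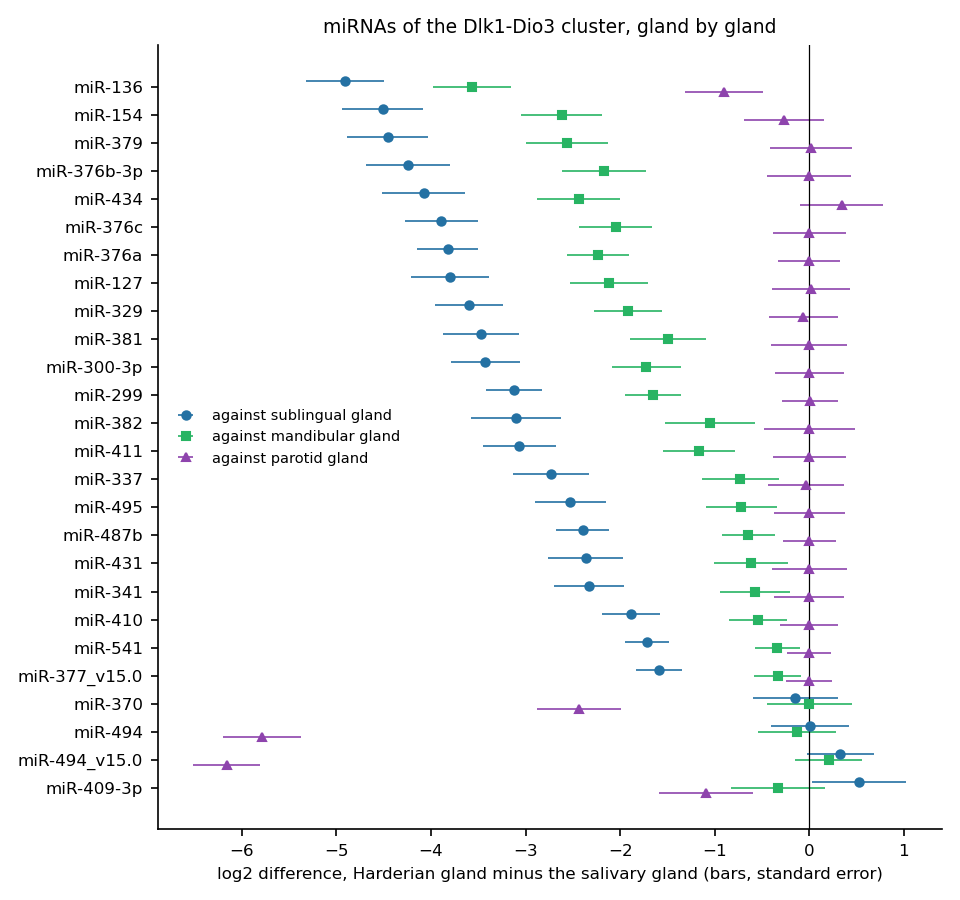
Log2 difference, Harderian gland minus each salivary gland, of the 26 tested probe sets of the Dlk1-Dio3 cluster, with bars for the standard error. Of the 24 without miR-494, 4 were detected on any Harderian array, so most differences are taken against the floor and their size depends on it; those of miR-136 are -4.91, -3.56 and -0.90 against the sublingual, mandibular and parotid gland.

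Several lower miRNAs were below all 3 salivary glands. MiR-345-5p gave 45.9, 41.6 and 39.5 in the Harderian gland against 102, 168 and 225 as the lowest, median and highest salivary values, a 3.53-fold lower signal (log2 difference -1.82 ± 0.15, limma adjusted p = 3.24e-06). The Harderian gland ranked 54 of 55 organs for it. MiR-193 gave 41.7, 45.5 and 43.2 against 56.8, 149 and 260.1, with the sublingual arrays closest, and a difference of -1.57 (limma adjusted p = 9.6e-05) that was -0.81 and not called with slide as a fixed block. MiR-30a, the member of its family that differed most, gave 343, 264 and 268 against 454, 633 and 1591, a difference of -1.35 ± 0.15 (limma adjusted p = 3.81e-05) that was widest against the parotid gland, at -2.26. Of 5 tested miRNAs of the miR-30 family 3 were lower, where 42.3% of all tested were, and 0 higher, with a median of -0.63, but miR-30e and miR-30c lost their calls when scaling used all miRNAs, at which miR-30a stayed called. MiR-152 gave 114, 112 and 90.8 against 199.8, 272 and 353 (log2 difference -1.36, limma adjusted p = 8.45e-06), which was -0.91 and not called with slide as a fixed block, while miR-148b-3p, which shares its seed CAGUGCA, differed by 0.01 with a 95% interval of -0.29 to 0.32.

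The miR-200 family, which maintains the epithelial state, is abundant in gland epithelium, and its members split. MiR-200a gave 1205, 1177 and 1566 in the Harderian gland against 3239.7, 3613 and 4786 as the lowest, median and highest salivary values, a 2.93-fold lower signal without overlap (limma adjusted p = 5.11e-06). MiR-200b was lower by a smaller difference, at 2054, 2544 and 2764 against 3481, 4262 and 4671 (log2 difference -0.78, limma adjusted p = 0.000327). MiR-200c_v15.0, the probe set of the earlier release, was higher at 6227, 7490 and 7684 against 3689, 4955 and 6873 (0.52, limma adjusted p = 0.013), with 1 Harderian array below the highest salivary array. The untagged probe set of miR-200c differed by -0.24 (limma adjusted p = 0.118). MiR-141 and miR-429 overlapped with the salivary glands, at differences of 0.34 and -0.13 with limma adjusted p of 0.0929 and 0.39. All 6 probe sets of the family were detected in both kinds of gland, and the median of the list was -0.19. The direction of miR-200a and miR-200b differed with the slide term: with slide as a fixed block over all arrays of the perfused animals the differences were 0.93 (limma adjusted p = 0.26) and 1.75 (limma adjusted p = 0.022). Slide effects in that fit rest on other organs, since no slide held both kinds of gland, and which direction holds was not tested.

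MiR-375, a miRNA of endocrine and secretory epithelium, gave 516, 430.1 and 339 in the Harderian gland against 671, 875 and 1271 as the lowest, median and highest salivary values. Its difference was -1.13 ± 0.15 (limma adjusted p = 0.0001) without overlap, and with slide as a fixed block it was 0.67 and no longer called. MiR-7a, listed with it, was lower by -0.84 (limma adjusted p = 0.0016) near background, a call that was lost with the scaling over all miRNAs. MiR-181c gave 26.5, 30.4 and 26.4 against 31.2, 57.4 and 99.0 (log2 difference -1.07, limma adjusted p = 0.0012), miR-181d was lower by -0.97, and miR-181a and miR-181b, with the same seed ACAUUCA, had differences of -0.26 and -0.32 that were not called. Both called members of that family lost their calls with the scaling over all miRNAs. MiR-320 gave 20.7, 24.4 and 20.1 against 31.2, 56.1 and 132 (log2 difference -1.44, limma adjusted p = 0.000524), a call that was lost with a floor 4 times as high. MiR-532-5p was below background on all 3 Harderian arrays and at least 1.89-fold lower, and it entered the test through the salivary glands alone. Its difference was -0.0004 and not called with a floor 4 times as high.

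The counts of the lists below stand beside 25.3% higher, 42.3% lower and a median of -0.24 for all miRNAs tested. Of 9 tested miRNAs linked to lipid metabolism, 3 were higher (miR-107, miR-103 and miR-378) and 3 lower (miR-27b, miR-30c and miR-185), with a median of -0.05. MiR-378, from the gene of the coactivator PGC-1β, gave 394, 337 and 407 against 149.8, 178 and 340.2 as the lowest, median and highest salivary values, a difference of 0.84 (limma adjusted p = 0.000184) in which 1 Harderian array lay just inside the parotid values. Of 8 let-7 miRNAs, 2 were higher, namely let-7c by 0.34 and miR-98 by 0.82, and the median was 0.14. Let-7a gave 5711, 5995 and 6302 within a salivary range of 4045 to 6832 and a difference of 0.09 with a 95% interval of -0.13 to 0.32. MiR-98 gave 247, 239 and 274 against 95.3, 142 and 186, without overlap (limma adjusted p = 0.000528). Of the miR-99, miR-100 and miR-125 families, miR-125b-5p (0.74), miR-100 (0.77) and miR-99a (0.59) of 5 tested were higher with limma adjusted p of 0.000271, 0.00634 and 0.00304. MiR-125b-5p gave 3008, 3365 and 2822 against 1421, 1687 and 2331, so that it did not overlap with the salivary arrays.

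Against the same 25.3% higher and 42.3% lower of all tested, further families were counted. Of 9 miRNAs of the miR-17 to miR-92 and miR-106b to miR-25 clusters 1 was higher (miR-93) and 2 lower (miR-19a by -0.91 and miR-19b by -0.80), and of the 5 miR-15 and miR-16 miRNAs only miR-16 was lower, a direction that turned to 0.07 with the percentile over all miRNAs. Of the 5 miRNAs of the miR-23, miR-24 and miR-27 clusters 3 were lower (miR-23b, miR-24 and miR-27b), with miR-24 at 0.13 under that scaling. The growth-arrest miRNA miR-34a was lower at 94.0, 131 and 72.9 against 121, 173 and 779.6 as the lowest, median and highest salivary values, with 1 Harderian array inside the salivary range (log2 difference -1.26, limma adjusted p = 0.000696). MiR-221 was lower against the sublingual and mandibular glands, by -1.23 and -1.17, but lay above all 3 parotid arrays, at 62.0, 57.6 and 68.0 against 45.2, 48.9 and 51.5 (0.36, limma adjusted p = 0.0738), and its mean difference was -0.68. Lower were also miR-146b by -0.56 and miR-146a by -0.44, the last at 0.06 with the percentile over all miRNAs. MiR-26a, at -0.36, also turned to 0.14 there. None of the miR-192, miR-194 and miR-215 miRNAs passed the detection filter.

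Markers of other cell types varied between glands. Of 5 tested miRNAs of smooth muscle and fibroblasts, 3 were higher, where 25.3% of all tested were, with a median of 0.58 beside -0.24. Of these 3, miR-145 turned to -0.23 with normexp, though not without the parotid array of animal 6. MiR-199a-3p turned to -0.39 with slide as a fixed block. MiR-143 gave 3639.6, 3725 and 4443 in the Harderian gland against 749, 1627 and 3447 as the lowest, median and highest salivary values, a difference of 1.15 (limma adjusted p = 0.000159) that was 0.28 against the sublingual gland (limma adjusted p = 0.271) and 2.08 against the parotid gland. The endothelial miR-126 was higher by 0.80 (limma adjusted p = 0.0184), at 631, 572 and 487 against 227, 325 and 545, and its star form by 0.68 without a call. The leukocyte miRNA miR-142-3p was lower by -0.85 (limma adjusted p = 0.0302) and miR-223 differed by 0.12 (limma adjusted p = 0.592). The summed leukocyte signal was 267 to 383 in the Harderian gland and 242 to 501 in the salivary glands, and the red blood cell miRNA miR-451 was at most 64.3 on the 12 arrays. Pancreas acinar miRNAs were detected on none of them. The muscle miRNA miR-133b gave 2240.5, 843 and 71.9 in the Harderian gland of animals 4, 5 and 6 and 7062, 3646 and 24.6 in the parotid gland, and its difference of 1.87 had a 95% interval of -1.47 to 5.21 (limma adjusted p = 0.301). The Harderian arrays of animals 4 and 5 and the parotid arrays of the same animals were thus the ones with high muscle miRNA signal. The differences of miR-203, miR-652 and miR-107 in animal 6, whose arrays had little muscle signal, were 6.18, 4.49 and 3.13. These are values of 1 animal, and the part of muscle tissue in the differences was not tested.

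A few miRNAs went opposite ways against different salivary glands, where 59.3%, 50.5% and 46.2% of all tested miRNAs were called against the sublingual, mandibular and parotid gland, in 3 comparisons that share the Harderian arrays. MiR-21 gave 5135, 5553 and 5409 in the Harderian gland, and 9250.5, 10453 and 9704 in the sublingual, 5482, 6630.0 and 7979 in the mandibular and 2155, 1412 and 1555 in the parotid gland. It was thus below the sublingual gland (-0.87, limma adjusted p = 0.0019) and above the parotid gland (1.68, limma adjusted p = 2.43e-05), and its mean difference was 0.17. MiR-10b was above the sublingual and mandibular glands by 1.64 and 1.52 and below the parotid gland by -1.02, each called by limma. MiR-92a was above the sublingual gland by 1.33 and below the parotid gland by -1.74, and differed by -0.05 from the mandibular gland. MiR-494 separated only the parotid gland: its probe set miR-494_v15.0 gave 193, 150.01 and 222 in the Harderian gland, 141.5 to 165.4 in the sublingual and mandibular glands and 6479.9, 17872 and 20195 in the parotid gland. Its difference of -1.88 (limma adjusted p = 0.000277) turned to 0.27 without the parotid gland.

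The glands were also set against the mean of the 51 organs that are neither Harderian nor salivary, in a limma fit over all organs of the same 3 animals, so that the arrays are not independent samples and p-values are not given. There 234 of 345 miRNAs were called for the Harderian gland (67.8%, 50 higher and 184 lower) and 278 for the salivary glands (80.6%, 104 higher and 174 lower). With normexp these splits were 29 higher and 23 lower for the Harderian gland and 262 higher and 17 lower for the salivary glands. That fit kept the parotid array of animal 6, on which normexp flattened dim signals, and was not run without it. A dependence of the splits on background apart from that array was therefore not tested. MiR-652, the marker chosen on these samples, was 4.21 above those organs in the Harderian gland and -0.41 in the salivary glands. MiR-203 was 5.41 above those organs in the Harderian gland and -0.41 in the salivary glands, and miR-107 was 2.47 and -0.59. MiR-205_v15.0 was above those organs in both, by 4.22 in the Harderian and 2.63 in the salivary glands, and so were miR-183, by 3.55 and 1.99, and miR-200a, by 3.51 and 5.06. For miR-345-5p the Harderian gland was -0.995 and the salivary glands 0.82 from those organs.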

How the data were processed

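MiRNAs were measured on Agilent 1-colour arrays of 14340 spots, 23 slides scanned on 3 days, 1 array per organ and animal. The authors deposited the scanner's spot intensities, processed (background-corrected) with Feature Extraction 10.7.3 per the submitters' processing notes, and a normalized table scaled to the 75th percentile, used here as an alternative. For this report the processed intensity was averaged per probe sequence without outlier spots and then per miRNA, scaled to the 75th percentile of the 37 miRNAs detected on all 180 arrays, brought to a common 2118, floored at 10.8 and put on the log2 scale. The number of arrays, not a read depth, limits the precision. Labels name separate animals as replicates. The 182 miRNAs detected on all 3 arrays of a gland were fitted with limma 3.58.1 (R 4.3.3) over the 4 glands, with p-values adjusted by Benjamini-Hochberg, and the comparison with 51 other organs over all organs of the same animals. Lower bounds ("at least") are the mean signal of the bright gland over the lowest detected signal of each dim array. Tables and plots used Python 3.11.15, numpy 2.4.6, pandas 2.3.3 and matplotlib 3.10.9. The fit was tested on simulated data.

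Named were miR-652, the 12 largest differences in each direction among called miRNAs without overlapping arrays, their other arms, the 5 brightest, up to 4 members of each list, those highest in the Harderian gland among 55 organs, and the 5 most like miR-652. The remaining ones (miR-378, miR-185, miR-130b, miR-92a, miR-429, let-7e and the marker miRNAs that were not tested), like the 1-base pairs, were chosen after their values were seen. Members, lists and markers were chosen with earlier results of these data known. The same animal links the glands per the labels, and the deviations of same-animal arrays from their gland means correlated between -0.08 and 0.73. The alternatives changed scaling, floor, background, filter, blocks and arrays, and their effect is given at the end. For normexp the median spot signal was used.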

Additional observations from a re-analysis of the deposited data

How the results depend on the processing

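The count of 123 called miRNAs (46 higher, 77 lower) ranged from 72 to 126, 32 to 49 and 40 to 77 when 1 array or animal was left out, and the 72 came without animal 5, which also gave 53 against the mandibular gland alone, where the range was 53 to 94. With normexp background the counts were 12, 5 and 7, and for the sublingual, mandibular and parotid glands 5, 7 and 23. Against the 51 other organs normexp gave 52 calls for the Harderian gland (29 higher, 23 lower, from 50 and 184) and 279 for the salivary glands (262 higher, 17 lower, from 104 and 174). The comparison with the other organs was not run under normexp without the parotid array of animal 6. Leaving out the parotid array of animal 6 under normexp, an alternative chosen after seeing the data, gave 43 calls between the Harderian and the salivary glands, 16 higher and 27 lower. Restricting to miRNAs detected on all 12 arrays gave 49, 21 and 28 of 93 tested, and 44, 41 and 48 for the 3 glands, with fewer miRNAs tested by construction. Lower calls were 46 with the percentile over all miRNAs, 49 with slide as a fixed block and 49 with the floor at the highest detection limit, also chosen after seeing the data, which gave 60 calls against the mandibular gland. With the animal as a replicate block 129 were called (49 higher, 80 lower), and the pairing changed no call among the named miRNAs other than adding 5.

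Some named differences changed sign, and the cause was not tested. With normexp these were miR-598-3p (-0.19), miR-872 (-0.36), miR-301a (-0.24), miR-425 (-0.27), miR-182 (-0.15), miR-204 (-0.21), miR-145 (-0.23), miR-31 (-0.34), miR-10b (-0.046) and miR-101b (-0.0096). With slide as a fixed block they were miR-200a (0.93), miR-375 (0.67), miR-30a* (0.055), miR-200b (1.75) and miR-199a-3p (-0.39). With the percentile over all miRNAs they were miR-30a* (0.15), miR-16 (0.070), miR-24 (0.13), miR-26a (0.14) and miR-146a (0.057). Without the parotid gland they were miR-21 (-0.59), miR-494_v15.0 (0.27) and miR-10a-5p (0.66), and with a floor 4 times as high miR-31 (-0.014). With normexp but without the parotid array of animal 6, chosen after seeing the data, 0 named miRNAs changed sign and 31 lost their call. Of the 12 largest higher miRNAs without overlapping arrays 11 kept their call under every alternative but normexp. Of the 12 largest lower ones without overlapping arrays 4 did. Low signals limit the dim miRNAs: the lowest detected signal was 3.17 to 50.1 after scaling on the 12 arrays.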

Other observations

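The Harderian profile was closer to those of some organs other than the salivary glands. Over the 425 miRNAs detected on 1 or more of the 180 arrays, its mean log2 signal correlated with that of the prostate other than its ventral lobe at r = 0.946, of the seminal vesicle at 0.944 and of the thyroid at 0.936, followed by the mandibular gland at 0.934, while the parotid gland ranked 7 at 0.900 and the sublingual gland 12 at 0.880. These values are across miRNAs, which are not independent replicates, and organs share animals and scaling. The mandibular mean includes the array of animal 6 that resembled the sublingual arrays. Over the 182 tested miRNAs that array correlated with the Harderian arrays at 0.830 to 0.838, and the mandibular arrays of animals 4 and 5 at 0.883 to 0.898.

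A few miRNAs were bright in the parotid gland, with a wide spread between animals. MiR-1224 gave 2145, 10421 and 17896 in the parotid gland of animals 4, 5 and 6, 217, 305 and 269 in the Harderian gland, and 86.7 to 249 on the sublingual and mandibular arrays. MiR-327 gave 277, 1424 and 1548 in the parotid gland, the floor of 10.8 on all 3 Harderian arrays and at most 14.1 on the sublingual and mandibular arrays. MiR-3584-5p gave 1014, 9208 and 11803 in the parotid gland and 161, 372 and 1528 in the Harderian gland, so that the Harderian value of animal 6 lay above the parotid value of animal 4, and it gave at most 19.7 on the sublingual and 459 on the mandibular arrays. These 3 miRNAs were singled out after their values had been seen.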
